A study of Mus musculus with 3 samples.

Results

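Nuclei rich in smooth muscle and pericyte transcripts were picked from mouse whole cornea by 12 genes, 6 of them contractile (Myh11, Acta2, Tagln, Cnn1, Lmod1 and Synpo2) and 6 from the pericyte side (Rgs5, Notch3, Pdgfrb, Mcam, Cspg4 and Abcc9). A barcode with at least 500 genes and at most 5% mitochondrial UMIs (unique molecular identifiers, each a counted transcript) was a member if it had UMIs of at least 4 of the 12 genes and if their summed share of its UMIs was at least 8 times their share over all barcodes of the same library. There were 146 members among 317975 barcodes. The wild-type library (WT) held 80, the untreated Aire knockout library (KO) 53 and the PBS-treated Aire knockout library (KO_PBS) 13.

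The study asked how corneal gene expression differs between wild-type mice, mice lacking Aire and Aire-deficient mice given topical treatment. Each library was made from nuclei of the frozen corneas of 5 mice aged 7 weeks, pooled before sequencing, and each group is 1 library. WT was untreated Aire wild-type cornea, KO was untreated Aire-deficient cornea, and KO_PBS was Aire-deficient cornea after 14 days of phosphate-buffered saline; the tissue in all 3 was labelled whole cornea. The series' design text names day 7 of treatment and 6 weeks of age instead, and it names a lacripep-treated group that was not analysed here.

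Mural cells wrap blood vessels. Smooth muscle cells circle arterioles and venules and contract through smooth muscle myosin and actin, whereas pericytes sit on capillaries inside the shared basement membrane and depend on PDGF-B signalling to the receptor encoded by Pdgfrb. The healthy central cornea has no blood vessels, so in a whole dissected cornea such cells are expected mainly at the vascular limbus, and smooth muscle also occurs in the adjoining iris and ciliary body. Aire makes thymic epithelium display antigens of other tissues, and its loss leads to autoimmune attack on organs that include the eye and the lacrimal gland.

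Serum response factor with its partner myocardin switches on many smooth muscle genes through a CArG box, a 10-letter element of CC, 6 letters that are each A or T, and GG, which reads as the same pattern on both strands. RefSeq promoters (GRCm38.p6, 250 bases before to 50 bases after each start) were searched for it. A box lay in 535 of 32851 windows (1.63%) and, counted by gene, in 488 of 27025 genes (1.81%). Of the 164 gene symbols outside the rule that were called higher in the members by the test described further on, 116 had a window and 7 of them (6.03%) held a box. Of the contractile list described below, 33 of 38 genes had a window and 6 (18.2%) held a box, namely Myl9, Myl6, Ldb3, Cnn2, Vcl and Srf; of the 14 that had a window and were called higher in members, 1 held a box (7.14%), Myl9. No exact box lay in the windows of the 22 pericyte-list genes that had one, nor in those of the 9 rule genes that had one. Myh11, Tagln and Pdgfrb had no window. Near matches were not counted: the Acta2 window held ccctatatgg and ccttgtttgg, each 1 letter away from a box. A match is a description of these letters, not a binding site. The 7 boxes of called genes are shown because this is the motif through which smooth muscle genes are known to be controlled. Each is printed 5′ to 3′ on the gene's strand with 25 bases on either side and with the box in capitals.
Myl9 (myosin regulatory light chain, chr2:156775278-156775337, + strand, box starting 161 bases before the start): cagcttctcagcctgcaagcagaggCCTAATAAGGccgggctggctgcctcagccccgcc
Trpc6 (receptor-operated calcium channel, chr9:8543995-8544054, + strand, 122 bases before): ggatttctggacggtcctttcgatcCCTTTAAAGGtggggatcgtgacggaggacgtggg
Dmd (dystrophin, chrX:82948747-82948806, + strand, 98 bases before): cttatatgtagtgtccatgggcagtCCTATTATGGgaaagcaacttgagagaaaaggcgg
Fbxl22 (a sarcomere-associated F-box protein, chr9:66514781-66514840, - strand, 222 bases before): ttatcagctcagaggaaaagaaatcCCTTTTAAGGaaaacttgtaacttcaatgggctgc
Fermt2 (kindlin-2, an integrin activator, chr14:45530235-45530294, - strand, 204 bases before): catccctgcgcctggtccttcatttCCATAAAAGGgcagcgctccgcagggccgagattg
Lmcd1 (a LIM-domain cofactor, chr6:112273518-112273577, + strand, 215 bases before): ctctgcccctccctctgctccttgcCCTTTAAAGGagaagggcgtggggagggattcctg
Lama2 (laminin alpha-2, chr10:27616947-27617006, - strand, 39 bases before): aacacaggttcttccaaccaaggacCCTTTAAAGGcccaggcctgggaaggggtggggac

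The libraries held 96587, 107031 and 114357 barcodes (WT, KO and KO_PBS) and 256852883, 352627863 and 178988562 UMIs; 96547, 107025 and 111899 barcodes passed the gene and mitochondrial limits, with medians of 2262, 2980 and 1446 UMIs. The libraries shared 2833 to 3379 barcode sequences in each pair, but no member's barcode was a member in another library. Aire itself had 15, 27 and 68 UMIs in WT, KO and KO_PBS, and none in a member, which is too few to check the genotype labels.

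Members made up 0.0829% of the kept barcodes in WT (95% exact binomial interval 0.0657 to 0.103), 0.0495% in KO (0.0371 to 0.0648) and 0.0116% in KO_PBS (0.00619 to 0.0199). These intervals, and the Poisson intervals below, cover counting error only, and 1 library per group allows no test between conditions. Since nuclei of whole tissue were counted, fewer cells of a type and less RNA per cell cannot be told apart. The order of the shares is also tied to the rule. The 12 genes took 0.0149% of all UMIs in WT and 0.0154% in KO but 0.0730% in KO_PBS, so the share a barcode had to reach was 0.119%, 0.123% and 0.584%. With the WT threshold applied to every library, 80, 60 and 1189 barcodes qualified (0.0829%, 0.0561% and 1.06%), so KO_PBS moved from the lowest share to the highest. The members just inside the threshold stood at 8.07, 8.11 and 8.04 times the share of their library, and the barcodes just outside it at 7.96, 7.99 and 7.95 times.

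**Figure D1:**
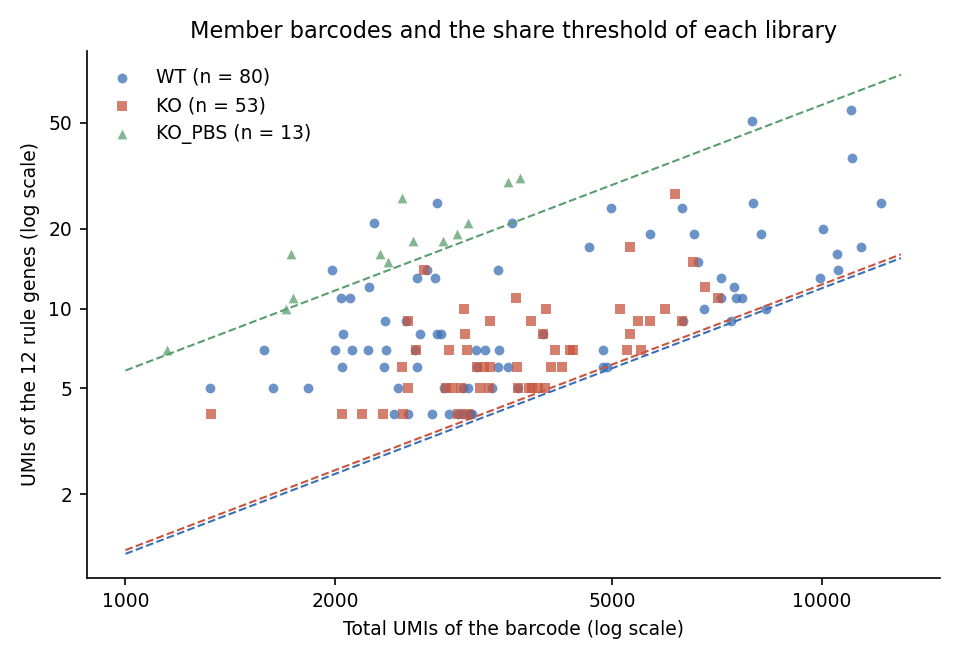
Total UMIs (x, log scale) and UMIs of the 12 rule genes (y, log scale) of each of the 146 members, with the share threshold of each library as a dashed line. The KO_PBS line lies above those of WT and KO, and all 13 KO_PBS members carry at least 7 rule-gene UMIs.

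Members were deeper than the typical barcode. Their median was 3169 UMIs in WT (1323 to 12158), 3648 in KO (1325 to 7097) and 2497 in KO_PBS (1149 to 3683). In WT, 8 members lay above the 99th percentile of depth, and none did in KO or KO_PBS; whether these hold more than 1 nucleus was not tested. All members of a library together held 363387, 206145 and 32293 UMIs. The evidence per barcode was thin: the median member had 8, 7 and 18 rule-gene UMIs (ranges 4 to 56, 4 to 27 and 7 to 31). Exactly 4 of the 12 genes were detected in 47 of 80, 39 of 53 and 4 of 13 members, and 6 or more in 15, 5 and 3.

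The genes that chose the members are described first, with no test. Acta2, smooth muscle actin, led in WT with 370 UMIs in 75 of 80 members, which is 1018 CPM (counts per 1000000 UMIs; 95% Poisson interval 917 to 1127) against 32.3 CPM in the other kept barcodes. It had 93 UMIs in KO (451 CPM) and 50 in KO_PBS (1548 CPM). Myh11, the smooth muscle myosin heavy chain, had 96, 33 and 70 UMIs (264, 160 and 2168 CPM) and was found in 54 of 80, 25 of 53 and 11 of 13 members. Its level in KO_PBS members was far above that in the other libraries, and in the other barcodes it was also highest there (9.74, 4.74 and 140 CPM). The member levels of rule genes are tied to the rule. KO_PBS members had to reach a summed share of 0.584%, against 0.119% in WT and 0.123% in KO. Tagln, an actin-binding protein of smooth muscle, followed Acta2 with 199, 50 and 24 UMIs. Cnn1 (calponin) had 34, 5 and 4 UMIs. Lmod1 (leiomodin) had 24 and 5 UMIs and none in KO_PBS members, where 0 allows up to 114 CPM. Synpo2 (an actin-bundling protein) had 16, 18 and 22 UMIs.

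On the pericyte side, Rgs5, a regulator of G-protein signalling, led in all libraries, with 82, 97 and 32 UMIs (226, 471 and 991 CPM). Notch3, the receptor that maintains arterial smooth muscle, had 62, 52 and 7 UMIs, and in WT and KO it set members apart least: 171 against 67.3 CPM in WT, 252 against 80.9 in KO and 217 against 40.4 in KO_PBS. Members held only 0.358%, 0.182% and 0.0970% of the libraries' Notch3 UMIs. Without Notch3 in the rule, 66, 51 and 15 barcodes qualified, of which 58, 30 and 12 were among the members. Pdgfrb had 29, 25 and 4 UMIs. Abcc9, the regulatory subunit of a vascular potassium channel, had 9, 12 and 17. Mcam and Cspg4, surface proteins of mural cells, were the sparsest over the libraries together, with 5, 8 and 6 and with 7, 8 and 2 UMIs. In KO_PBS alone Pdgfrb had fewer UMIs than Mcam.

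The libraries differed in which side of the rule their members came from. The sides were counted from the same 12 genes that chose the members, under a different threshold in each library, so this is a description. Contractile UMIs outnumbered pericyte-side UMIs in 68 of 80 WT members and in 11 of 13 KO_PBS members, but in 25 of 53 KO members; the pericyte side led or tied in the remaining 12, 2 and 28, with ties in 6 WT, 9 KO and 0 KO_PBS members. The 2 sides were detected together in 66, 48 and 10 members. In KO_PBS the 13 members fell into 2 separate kinds. The 11 contractile ones had 6 to 24 contractile UMIs and at most 2 pericyte-side UMIs. The other 2 had 2 contractile UMIs each against 29 and 28 from the pericyte side. These 2 barcodes differed at 12 of 16 letters and shared 35.4% of the genes detected in the smaller, near the median of 33.8% over the 78 pairs of KO_PBS members. They held 30 of the 32 Rgs5 UMIs and all 17 Abcc9 UMIs of the KO_PBS members, and no Myh11 UMI, and they held 43 of the 57 UMIs of the pericyte list described below.

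**Figure D2:**
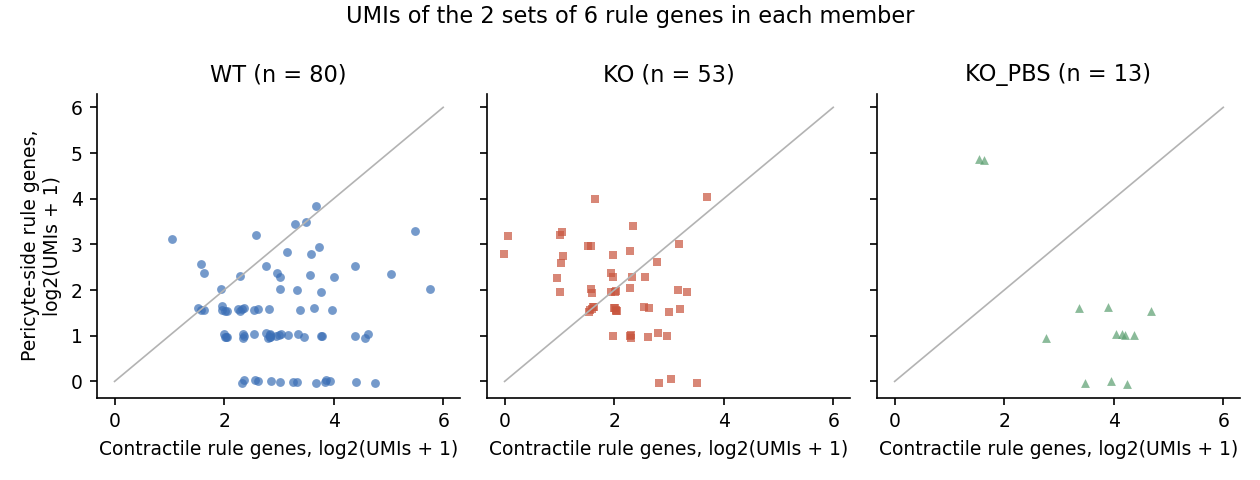
UMIs of the 6 contractile (x) and 6 pericyte-side (y) rule genes in each member, as log2(UMIs + 1) with a small random offset, by library; the line marks equal values. WT members lie mostly below the line, KO members on both sides of it, and KO_PBS members split into 11 below and 2 above.

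Markers of other cell types were counted in the same barcodes. Corneal epithelium markers, 12 genes that include the keratin Krt12, took 38526, 28926 and 13130 CPM of the member UMIs, against 44802, 31516 and 18313 CPM in the other barcodes, and every member had UMIs of at least 2 of them. The same held for every barcode of a matched set, the 10 nearest non-members in depth for each member, in WT, KO and KO_PBS. Keratocyte markers stood at 0.959, 0.980 and 0.676 times the level of the other barcodes. Corneal endothelium, Schwann cell, lens, photoreceptor, pigment cell, macrophage and lymphocyte lists lay between 0.457 and 1.45 times it. Striated muscle markers were at 2.72, 1.20 and 3.00 times it, with Actn3, Myh1, Myh2, Myh4 and Tnnt3 at 0 UMIs in the members of all 3 libraries. Vascular or lymphatic endothelium markers stood furthest above the other barcodes: 377 against 45.3 CPM in WT, 349 against 109 in KO and 1703 against 240 in KO_PBS. All 12 of its markers had a UMI in WT members, 10 in KO (Tie1 and Prox1 at 0) and 9 in KO_PBS (Tie1, Vwf and Prox1 at 0). By a rule of the same form for these 12 markers, 7 of 80, 3 of 53 and 2 of 13 members were also endothelium-rich, and in KO_PBS these were the 2 pericyte-side barcodes. The results below are therefore given with and without these 12 barcodes where that matters.

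To ask which other genes go with the 12, UMIs were summed per library over members and over all other kept barcodes, and the 3 libraries were used as replicates in edgeR's quasi-likelihood test with the library as a block and Benjamini-Hochberg adjustment. The rule genes were left out of every count. Of 20228 genes tested, 165 were higher in members (0.816%) and 6 were lower (0.0297%) at an adjusted p under 0.05; 1087 had an unadjusted p under 0.05. Of the 165, 113 were higher in all 3 libraries and 35 had no UMI in KO_PBS members. The median gene stood at -0.21 on the log2 scale, and fold changes are read against that. Without the 12 endothelium-rich members 79 genes were higher, 78 of them among the 165. WT weighed most: without it 15 genes were called higher, without KO 51 and without KO_PBS 151. The p-values and standard errors (SE) rest on a spread that edgeR estimates across the genes of these 3 pooled libraries (common dispersion 0.0244). They do not rest on a gene's own 3 ratios alone, and they do not measure the spread between mice. Markers of other cell types were mostly not called: none of the 12 keratocyte, 12 corneal epithelium, 8 corneal endothelium, 8 lens, 8 pigment cell, 8 photoreceptor, 8 Schwann cell, 8 macrophage and 9 lymphocyte markers tested was called in this main edgeR fit or by DESeq2, with 1, 3, 1, 5, 0, 2, 1, 0 and 1 at an unadjusted edgeR p under 0.05. Library totals called 1 keratocyte marker higher, and so did the fit without KO_PBS. The medians of these lists ran from -1.16 for photoreceptor to 0.18 for Schwann cell markers.

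Some contractile genes that the rule did not read were higher in members. Of 38 in the list, all were tested, 16 were higher and none lower, and the median was 1.53 on the log2 scale; without the endothelium-rich members 15 were higher. Without WT 3 were called, without KO 10 and without KO_PBS 14. Myl9, the regulatory light chain that myosin light chain kinase phosphorylates to start contraction, had 130, 44 and 11 UMIs in WT, KO and KO_PBS members. This was 359 against 19.2 CPM in the other WT barcodes, 214 against 11.3 in KO and 343 against 107 in KO_PBS, so members were higher in each library. The log2 fold change was 3.45 ± 0.23 (SE of the fit, n = 3 libraries, edgeR adjusted p = 2.28e-48). It was 2.90 without WT, 2.81 without KO and 4.09 without KO_PBS, and was called each time. Mylk, the kinase itself, had 64, 20 and 72 UMIs, 177 against 30.5 CPM, 97.4 against 28.5 and 2242 against 241, a log2 fold change of 2.31 ± 0.23 (edgeR adjusted p = 5.52e-20). KO_PBS members stood far above the others for this gene, with 21 of the 72 UMIs in 1 of 13 barcodes.

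Tpm1, a tropomyosin of the actin filament, had 171, 35 and 21 UMIs (473 against 44.3 CPM, 170 against 46.3 and 654 against 210) and stood higher by 2.23 ± 0.24 on the log2 scale (edgeR adjusted p = 2.55e-17). Without WT it stood at 1.46 (edgeR adjusted p = 0.389). Actg2, enteric smooth muscle actin, had 20, 4 and 1 UMIs and a log2 fold change of 4.45 ± 0.59 (without WT 3.30, adjusted p = 0.977). Des, the muscle intermediate filament desmin, had 20, 6 and 7 UMIs (4.01 ± 0.45; without WT 3.11, adjusted p = 0.0245). Pcp4l1, a relative of the small peptide Pcp4, had 30, 4 and 4 (4.44 ± 0.48; without WT 3.49, adjusted p = 0.476). Csrp1, a LIM protein of the actin cytoskeleton, Cald1 (caldesmon) and Flna (filamin A) were higher by smaller steps, 1.25, 1.44 and 1.18. The remaining called genes of the list were Rbpms, Ppp1r14a, Mrvi1, Pdlim3, Kcnmb1, Smtn and Pln, the last with only 2, 1 and 1 UMIs. Relatives that are abundant in many cells did not pass. Tpm2 had 959 against 360 CPM in WT and was higher in all 3 libraries (adjusted p = 0.528), and it did pass against depth-matched barcodes (0.00123), by library totals (1.68e-05) and without KO_PBS (1.82e-08). Myl6 had 1404 against 1026 CPM in WT (adjusted p = 0.924). Myocd, the smooth muscle coactivator myocardin, had 4, 0 and 1 UMIs (adjusted p = 0.513), and Srf had 2, 2 and 1 (adjusted p = 0.921).

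**Figure D3:**
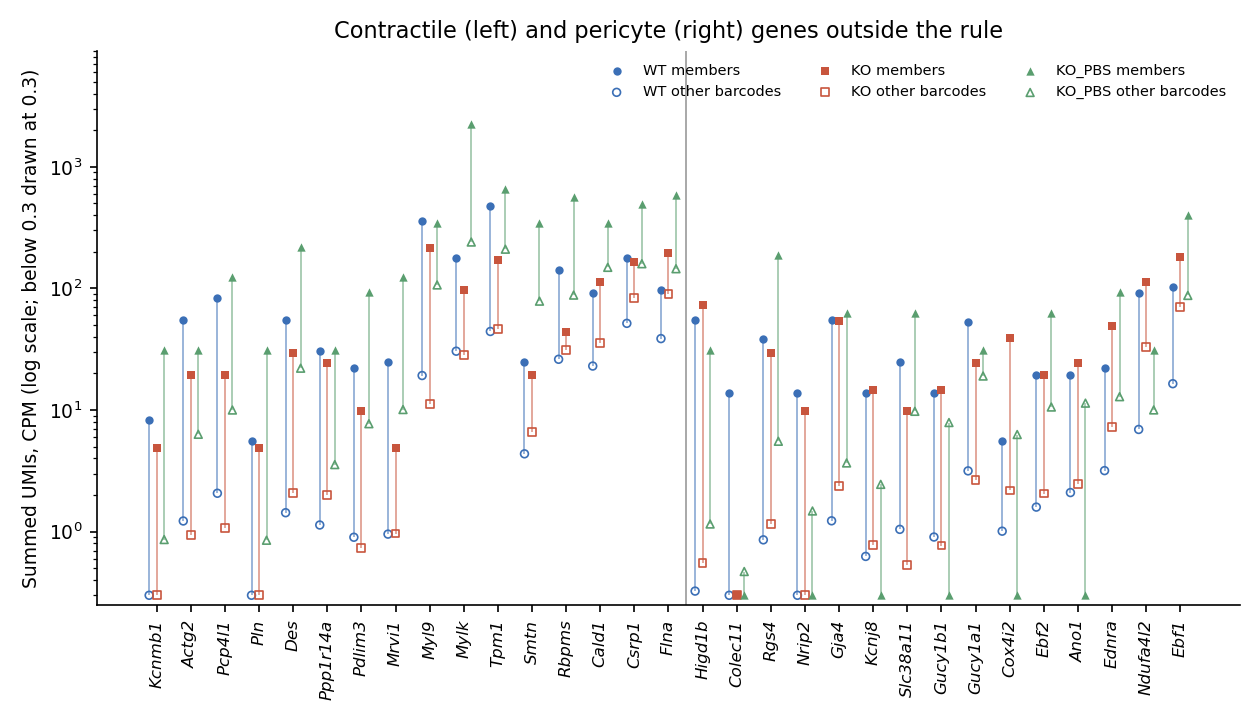
Summed level in members (filled) and in the other kept barcodes (open) of each library, in CPM on a log scale, for the 16 contractile and 15 pericyte genes outside the rule that were called higher; values below 0.3 CPM are drawn at 0.3. Filled symbols lie above open ones for every contractile gene in each library, while several pericyte genes have no UMI in KO_PBS members.

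Some pericyte genes outside the rule were higher as well. All 30 of the list were tested, 15 were higher and none lower, with a median of 2.64; without the endothelium-rich members 8 were higher, without WT 3, without KO 6 and without KO_PBS 14. Higd1b, a mitochondrial protein used as a pericyte marker, had the largest log2 fold change of the 165, with 20, 15 and 1 UMIs (55.3 against 0.325 CPM in WT, 73.0 against 0.555 in KO, 31.1 against 1.16 in KO_PBS) and a log2 fold change of 6.79 ± 0.52 (edgeR adjusted p = 8.12e-36). Rgs4, a relative of Rgs5, had 14, 6 and 6 UMIs (4.87 ± 0.57), and Gja4, the connexin 37 of vessel walls, had 20, 11 and 2 (4.69 ± 0.53). Ndufa4l2, an inhibitor of the respiratory chain, had 33, 23 and 1 UMIs (2.53 ± 0.31; without WT 1.64, adjusted p = 0.241). Ebf1, a transcription factor of mural and stromal cells, had 37, 37 and 13 (1.80 ± 0.24), of which 11 of the 13 KO_PBS UMIs came from the 2 pericyte-side barcodes. Kcnj8, the channel pore that pairs with the product of Abcc9, had 5, 3 and 0 UMIs (3.85 ± 0.89). Gucy1a1 and Gucy1b1, the subunits of the nitric oxide receptor, were both called, as was Ednra, the endothelin receptor of smooth muscle (2.58 ± 0.51). The calls on Colec11, Cox4i2, Ebf2, Nrip2, Slc38a11, Ano1 and Gucy1b1 were lost without the endothelium-rich members (adjusted p 0.060 to 0.83), while the fold changes moved little for Ano1 (2.60 to 2.62), Gucy1b1 (3.14 to 3.00), Cox4i2 (3.01 to 2.77), Ebf2 (3.00 to 2.57) and Slc38a11 (3.68 to 3.08) and more for Colec11 (5.17 to 4.11) and Nrip2 (4.86 to 3.93). Without KO Cox4i2 stood at 1.42 (adjusted p = 0.974), and without WT Slc38a11 stood at 2.78, Nrip2 at 4.10 and Gucy1b1 at 2.46 (adjusted p = 0.977 for each). Foxc1, a forkhead factor, and Pdzd2 did not pass (adjusted p = 0.921 for both), and Atp13a5, a marker of brain pericytes, had no UMI in a member.

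Among 42 genes for calcium handling, cyclic GMP and vasoactive receptors, 40 were tested, 8 were higher and none lower (median 1.04); 4 were higher without the endothelium-rich members and 1 without KO. The calls lost without the endothelium-rich members had fold changes of 1.38 (Cacna1c, 1.47 before), 1.75 (Pde1a, 1.94), 3.49 (Trpc6, 3.81) and 2.02 (Dgkb, 2.23). Kcnab1, a potassium channel subunit, had 13, 18 and 4 UMIs (2.60 ± 0.38, edgeR adjusted p = 3.01e-09; without KO 1.90, adjusted p = 0.273). Plcb4, a phospholipase C downstream of contractile receptors, had 15, 9 and 39 UMIs, and its 1214 CPM in KO_PBS members, against 141 in the other barcodes, came with the call: without KO_PBS the log2 fold change was 0.78 in place of 1.58 (adjusted p = 0.672). Pde3a and Pde1a, which break down cyclic nucleotides, Ryr3, a calcium release channel, Trpc6, Cacna1c, the L-type calcium channel, and Dgkb, a diacylglycerol kinase, made up the rest. Prkg1, the cyclic GMP kinase, was abundant in both sums (204 against 145 CPM in WT) and did not pass (adjusted p = 0.328).

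Notch signalling genes other than Notch3 were mostly not called. Of 22 tested, 1 was higher, Nrip2, which is also in the pericyte list, and the median was 0.10. The Notch target Hes1 stood at 486 against 583 CPM in WT, and Heyl and Hey2, targets typical of mural cells, had 3 UMIs each over all members. In the list of PDGF, angiopoietin and TGF-beta genes 3 of 25 were higher, Pdgfd (a PDGF receptor ligand), S1pr1 and Eng (both abundant in endothelium), and none was without the endothelium-rich members. For the vascular basement membrane 7 of 26 were higher: Itga1 and Itga7, integrin subunits that bind collagen and laminin, Sparcl1, the collagen IV chains Col4a1 and Col4a2, and the laminin chains Lamc1 and Lama2. Without the endothelium-rich members 2 of these calls held, Itga1 (2.50 before, 2.02 after) and Sparcl1 (2.18 and 1.45). The fold changes of Lama2 (1.15 and 1.14), Lamc1 (1.33 and 1.25) and Itga7 (3.64 and 3.21) moved little, and those of Col4a1 (1.23 and 0.65) and Col4a2 (1.30 and 0.88) more. Without WT Sparcl1 stood at 0.99 (adjusted p = 0.977). In KO_PBS members Col4a2 had 12 UMIs, 10 of them in the 2 pericyte-side barcodes.

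In the list of genes linked to a change of smooth muscle state 3 of 26 were higher: Cxcl12, a chemokine, Vim, the intermediate filament vimentin, and Mgp, a matrix protein that limits calcification. They did not behave alike across libraries. Vim had 823 against 75.2 CPM in WT, 502 against 262 in KO and 187 against 260 in KO_PBS, so its excess was seen in WT and KO, and without WT its log2 fold change was 0.20 in place of 1.53 (adjusted p = 0.977). Mgp had 625 against 121, 823 against 324 and 561 against 461 CPM, and without WT 0.59 in place of 1.25 (adjusted p = 0.977); without KO the values were 1.60 for Vim and 1.05 for Mgp, both with an adjusted p of 0.974. DESeq2 called 1 of the 3. No interferon or antigen presentation gene of 42 tested was called in the main edgeR fit (median -0.11, with 0 at an unadjusted p under 0.05) or by DESeq2. Library totals called 2 higher, and so did the fit without KO_PBS. The summed list stood at 2791 against 2037 CPM in WT, 16245 against 14858 in KO and 12581 against 13905 in KO_PBS.

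Of the endothelium markers 7 of 12 were higher: Cldn5 (4.07 ± 0.38; without WT 3.33, adjusted p = 0.000885), Ptprb, Cdh5, Flt1, Egfl7, Emcn and Pecam1. Cldn5 and Egfl7 were also higher without the endothelium-rich members, at 2.90 and 1.76. Fabp4, a fatty acid carrier of capillary endothelium, had 82, 9 and 0 UMIs, with 35 of the 82 in 1 WT barcode (4.68 ± 0.38; without WT 2.18, adjusted p = 0.977). Without the endothelium-rich members it stood at 2.65 (adjusted p = 0.00186), and DESeq2 did not call it (adjusted p = 1.00). Among genes on no list, Igfbp7, a secreted protein of vessel walls, had 352, 79 and 15 UMIs (973 against 111 CPM, 385 against 112 and 467 against 242; log2 fold change 1.92 ± 0.27). Without WT it stood at 1.15 (adjusted p = 0.977), and without KO at 1.81 (adjusted p = 0.362). Mfge8, Timp3, Fry and Zeb2 were higher by 1.18, 0.99, 1.14 and 0.96; none of these 4 calls held without the endothelium-rich members, where the values were 0.92, 0.80, 0.66 and 0.81. Hbb-bs, a haemoglobin chain, was higher in 2 of 3 libraries with 127 UMIs in KO members, 59 of them in 1 barcode; without KO its log2 fold change was -0.29. Carmn, a long RNA of smooth muscle, and Jph2, which ties the cell membrane to calcium stores, had 7 and 6 UMIs in KO_PBS members against at most 4 in WT or KO; without KO_PBS Carmn stood at 1.66 in place of 3.62 (adjusted p = 0.961). Ttn, a giant sarcomere protein and the 1 striated muscle marker of 11 that was called (2.32 ± 0.52, edgeR adjusted p = 0.00144), had 4, 1 and 13 UMIs, 8 of the 13 in 1 contractile KO_PBS barcode; without KO_PBS the log2 fold change was 1.19 (adjusted p = 0.961), and DESeq2 gave 0.0658. The 6 genes lower in members were Igha, Pea15a, Oasl1, Selenoh, Cryba2 and Ntm, by 1.06 to 1.54 on the log2 scale; DESeq2 called none of them.

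Members with more rule-gene UMIs stood higher in these lists; the groups were made by the rule's own values, so this is a description. In WT the contractile list stood at 3157 CPM (95% Poisson interval 2681 to 3693) in the 18 members with 4 to 5 rule-gene UMIs, 4257 in the 27 with 6 to 9 and 5712 in the 35 with 10 or more, against 2170 in the depth-matched barcodes. In KO the steps were 3071 (2621 to 3577), 3415 and 4558, against 2289. The pericyte list in WT began at 142 CPM (57.0 to 292) in the 18 lowest members, not above the 193 of the matched barcodes, and was 571 and 1007 in the next groups. In KO it went from 726 (516 to 992) through 1166 to 1419, against 433. In KO_PBS 12 of 13 members had 10 or more rule-gene UMIs and stood at 12394 CPM for the contractile list, against 5138. Endothelium markers followed the same order, from 121 to 490 CPM in WT and from 149 to 639 in KO, and their part in these steps was not tested.

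**Figure D4:**
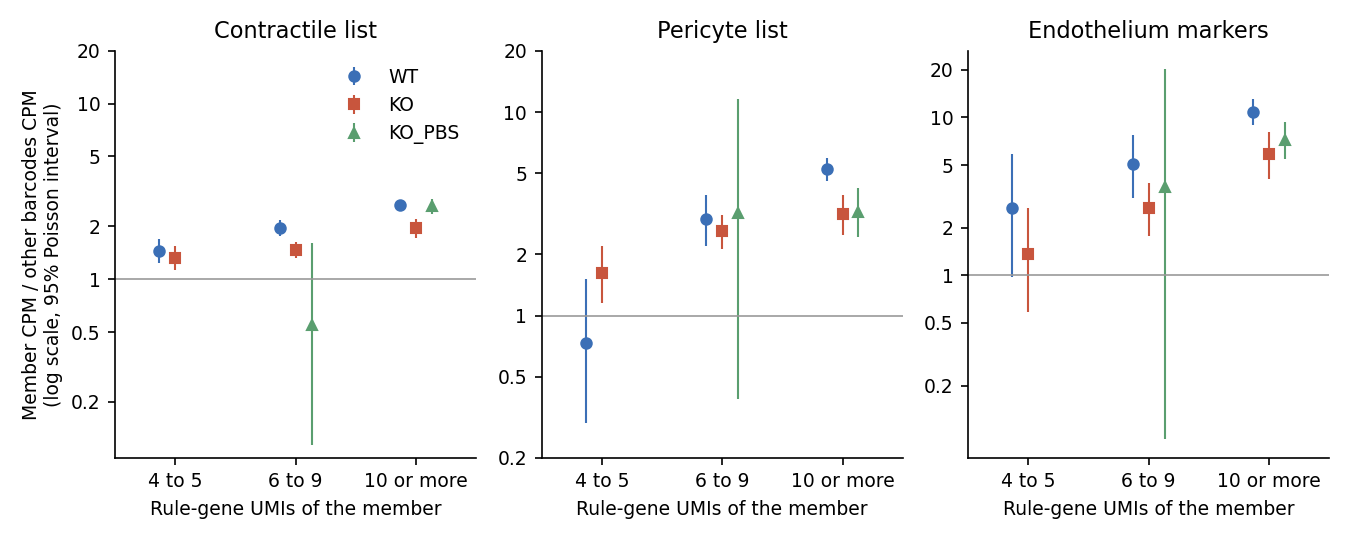
Level of 3 gene lists in members, divided by that in the other kept barcodes of the same library (y, log scale; bars are 95% Poisson intervals), for members with 4 to 5, 6 to 9 and 10 or more rule-gene UMIs. All 3 lists stand higher in the members with more rule-gene UMIs in WT and KO; the KO_PBS point at 6 to 9 is 1 barcode.

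Contractile-side members were also compared with the rest, called pericyte-side here although they include the ties, in genes the rule did not read; this split was itself made by rule genes, so the values are descriptive. The contractile list had overlapping intervals on the 2 sides in WT and in KO. It stood at 5154 CPM (4899 to 5418) on the contractile side and 4483 (3979 to 5033) on the pericyte side in WT, and at 3836 (3458 to 4243) and 3484 (3139 to 3856) in KO. In KO_PBS it stood at 13527 and 7223. Single genes went both ways. Tpm1 was higher on the contractile side in WT (527 and 219 CPM) and KO_PBS (843 and 0) but not in KO (132 and 205), and Mylk likewise (201 and 62.5 in WT, 2689 and 695 in KO_PBS, 91.6 and 103 in KO). Palld, an actin cross-linker, stood at 111 and 46.9 CPM on the 2 sides in WT and at 112 and 28.0 in KO, the pericyte side with 3 UMIs in each. Actg2 had 24 UMIs on the contractile side and 1 on the other over all libraries. For Cald1, Sorbs2, an adaptor of the actin cytoskeleton, and Actn1 (alpha-actinin) the intervals of the 2 sides overlapped in the sum over libraries; Cald1 was level in KO (112 and 112 CPM), and Actn1 had 7 and 0 UMIs in KO_PBS. Summed in the same way, Ebf1 stood higher on the pericyte side, with 64.1 CPM (42.3 to 93.3) on the contractile and 337 (257 to 433) on the pericyte side, and Ndufa4l2 did as well (68.9 and 157). So did the vascular genes Col4a2 (52.2 and 196) and Flt1 (21.4 and 140); 17 of the 25 pericyte-side Flt1 UMIs came from the 2 KO_PBS barcodes. In each library the pericyte list was higher on the pericyte side: 1125 against 715 CPM in WT, 1364 against 865 in KO and 5973 against 562 in KO_PBS, where the contractile barcodes lay at the 548 CPM of the other barcodes. Endothelium markers moved with this split, at 531 against 346, 476 against 214 and 6668 against 281 CPM, and their part in it was not tested.

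The KO and WT members were compared by a rule of size in place of a test. A gene needed a sum of 50 UMIs across the pair, CPM at least 2-fold apart (any count below 3 taken as 3) and 95% Poisson intervals that do not overlap. Of 1542 genes with enough UMIs, 154 were past it as higher in KO (9.99%) and 82 as lower (5.32%); for members at 16 times the library share the balance was the other way, with 22 higher and 33 lower. The other kept barcodes of the same 2 libraries had the same sign for 230 of the 236. Of the 236, 5 had a ratio at least 2-fold above that in the other barcodes and 36 at least 2-fold below it. Of these 36, 12 were lower in KO members and 24 were higher there, but by less than in the other barcodes; for 16 of the 24 the members of both libraries had 3 or more UMIs. Mmp3, a matrix protease, was one of the 16, with 90 and 230 UMIs and a log2 ratio of 2.17 in members against 4.05 in the others.

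Igkc, an antibody light chain, had 0 UMIs in WT members and 1962 in KO members, 10.17 higher on the log2 scale with the 0 taken as 3 UMIs, against 1.93 and 12406 CPM in the other barcodes. Ighg1 had 0 and 1223 UMIs, Saa3, an acute-phase protein, 0 and 231, and Slpi, an antiprotease, 2 and 786. Plasma and lymphocyte markers stood at 16571 CPM in KO members against 20151 in the other KO barcodes; their part in these values was not tested. The 42 interferon and antigen presentation genes summed to 2791 CPM (2622 to 2969) in WT and 16245 (15698 to 16806) in KO members, and to 2037 and 14858 in the other barcodes. The 17 of them with enough UMIs were all past the rule as higher in KO (over all genes 9.99%), but genes near 0 in WT could reach 50 UMIs only through KO, so this count is no support for the direction. B2m, the light chain of MHC class I, went from 216 CPM (170 to 269) to 1831 (1650 to 2026), and from 118 to 1777 in the other barcodes. Iigp1, an interferon-induced GTPase, had 9 and 113 UMIs. For Cd74, the MHC class II invariant chain, 62 of the 96 WT UMIs came from 1 member.

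Contractile and pericyte genes are given separately. The pericyte list was at 788 CPM (699 to 885) in WT and 1125 (984 to 1280) in KO members, and at 193 and 451 in the other barcodes; the 2 of its genes with enough UMIs were not past the rule. Of 13 contractile genes with enough UMIs, 3 were past the rule as lower in KO members (over all genes 5.32%). These were Tpm1 (-1.47, with 0.06 in the other barcodes), Tpm2 (-1.11 and -0.17) and Rbpms, an RNA-binding protein of smooth muscle (-1.69 and 0.25). Rbpms had 51 UMIs in WT and 9 in KO members and reached the required sum only through WT. Its place in this count is therefore no support for the direction. Flna was higher (1.01 and 1.21, over all genes 9.99%). The list's median was -0.26 in members and 0.25 in the other barcodes. Myl9 (-0.75) and Mylk (-0.86) were not past the rule. Sparcl1 had 171 CPM (131 to 220) in WT and 63.3 (33.7 to 108) in KO members, while it was higher in KO among the other barcodes. Igfbp7 had 973 and 385 CPM in members and 111 and 112 in the others, and Gm13889 had 127 and 24.3 CPM in members. Fabp4 had 227 CPM in members of WT and 43.8 in those of KO, but 2.26 and 8.08 in the other barcodes, with 35 of the 82 WT UMIs in 1 member. Sparcl1, Gm13889 and Fabp4 also reached the required sum only through WT, so being past the rule is no support for their direction. The members of WT were mostly contractile-side and those of KO were not, and the part of that in these ratios was not tested. Endothelium markers stood at 377 CPM (317 to 446) in WT and 349 (273 to 440) in KO members. Ptgds and Dct, which pigment cells express, were also lower in KO members (-3.91 and -2.19) and in the other barcodes (-2.02 and -1.83). Of the Ptgds UMIs in WT members, 132 of 450 came from 1 barcode.

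**Figure D5:**
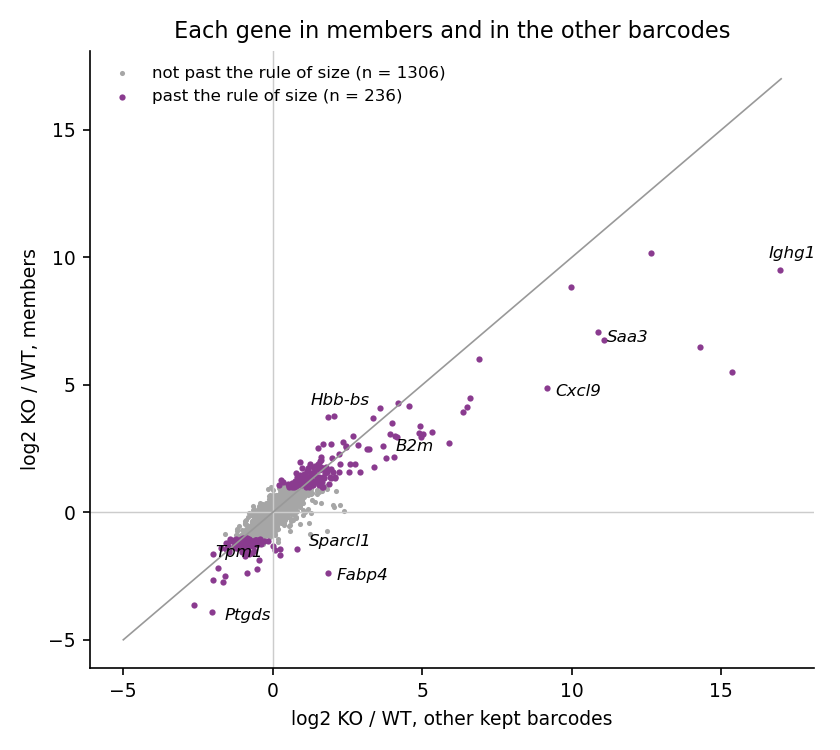
Log2 ratio of KO to WT in members (y) against the same ratio in the other kept barcodes (x) for the 1542 genes with at least 50 UMIs in members, any member count below 3 taken as 3; coloured points are the 236 past the rule of size and the line marks equal ratios. Most points lie along the line, immune genes extend far to the right of it, and Fabp4 and Sparcl1 lie below 0 in members but above 0 in the others.

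KO_PBS and KO members shared too few UMIs for more than a coarse comparison, and the 2 comparisons share the KO library. Of 619 genes, 35 were past the rule as higher in KO_PBS (5.65%) and 122 as lower (19.7%), with a median of -0.47; centred on that median the counts were 43 and 81. The other barcodes of these libraries had the same sign for 153 of the 157. Mylk was the highest contractile gene, 97.4 CPM in KO and 2242 in KO_PBS members (4.52 on the log2 scale, with 3.08 in the other barcodes). Contractile genes past the rule numbered 5 of 8, all higher: Mylk, Tpm1, Csrp1, Ppp1r12a, a subunit of myosin phosphatase (1.52, with 0.06 in the others), and Flna. In KO members these 5 had 20, 35, 34, 40 and 40 UMIs. Each reached the UMI sum that the rule requires only through its higher level in KO_PBS, so this count is no support for the direction. In the calcium list 3 of 4 were higher, Pde4d (2.94 and 0.79), Atp2a2, the calcium pump of internal stores (1.37 and -0.20), and Prkg1. Pde4d, with 25 UMIs in KO members, and Atp2a2 reached the required sum in the same way, so this count too is no support for the direction. The KO_PBS members were 11 of 13 contractile and had passed a share threshold of 0.584% against 0.123% in KO; the part of that in these ratios was not tested.

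Most interferon and antigen presentation genes were not past the rule in KO_PBS members. Of 18, none was higher and 3 were lower (H2-Ab1, Iigp1 and Cxcl9), a share near the 19.7% of all genes. Iigp1 had 113 UMIs in KO and 6 in KO_PBS members, and Cxcl9 had 50 and 0. Both reached the required sum only through KO, so this count is no support for the direction. The median was -0.48, beside -0.47 for all 619 genes and -0.02 for the list in the other barcodes. B2m was at 1831 and 1744 CPM. Antibody genes were lower, Igkc at 9554 and 561 CPM, as in the other barcodes (12406 and 980). Stromal genes on the state-change list were lower, 6 of 10 past the rule (over all genes 19.7%), among them Col1a1 (-2.01), Col1a2 (-2.29) and Mmp3 (-3.58). Mmp3 had 230 UMIs in KO and 2 in KO_PBS members, and Vim, also among the 6, had 103 and 6. Both reached the required sum only through KO, so this count is no support for the direction. In the other barcodes Col1a2 stood at -0.81 and Mmp3 at -3.38, and the list's median was -0.81, beside -1.34 in members. Keratocyte markers stood at 10910 CPM in KO and 7060 in KO_PBS members. Pigment and lens genes were higher in members (Pmel by 5.91, Dct by 4.28, Crybb2 by 4.51) and in the other barcodes alike (5.88, 4.41 and 5.56). AY036118 had 16844 CPM in KO and 249 in KO_PBS members, and 19410 and 512 in the other barcodes.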

How the data were processed

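The deposited matrices hold raw UMI counts per gene and barcode. Per the file headers, Cell Ranger 7.0.1 wrote them, and the submitters' processing notes name mm10. How barcodes were filtered, whether reads in introns counted and which annotation was used are not given in the sources used here. Library totals and member sums are given in the report. The barcode rule was applied to each library with the sample groups from the labels. The members, gene lists and tests were chosen with earlier results of these data known. Doublets were not called. UMIs were summed over the 30406 gene IDs shared by the 3 gene lists, which hold 99.6%, 99.6% and 99.3% of the UMIs of WT, KO and KO_PBS.

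Members were compared with the other kept barcodes by edgeR 4.0.16 (R 4.3.3; filterByExpr, glmQLFit and glmQLFTest, library as a block, Benjamini-Hochberg over all genes, adjusted p under 0.05). TMM factors were planned for the main test. In a trial on simulated data, whose TMM values are not given here, they did not recover fold changes at sums of such unequal size. They were replaced by RLE factors, and TMM, library totals and DESeq2 1.42.0 are alternatives. Between conditions the rule of size was used, since each group is 1 library. Shares have exact Clopper-Pearson and sums exact Poisson 95% intervals. CPM are per 1000000 summed UMIs. Named genes are the 12 rule genes; genes of the lists; genes called higher with at least 10 UMIs in the members of each library, ranked by fold (16 met this, of the up to 25 planned); and in each condition comparison the 10 with the largest ratio each way past the rule of size, at 50 CPM or more in the higher library, without mitochondrial and ribosomal protein genes. Fabp4 (in the test), Carmn, Jph2, the called genes with a promoter box and the 6 lower genes were named after their values were seen. Promoter sequences are from RefSeq. Sums and figures used scipy 1.17.1 and numpy 2.4.6 under Python 3.11.15, with pandas 2.3.3 and matplotlib 3.10.9.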

Additional observations from a re-analysis of the deposited data

Results flagged for a closer look

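Col1a2, a collagen I chain of stromal cells, stood higher in members than in the other kept barcodes of WT and lower in those of KO_PBS, with 95% Poisson intervals clear of the other barcodes' level both times. It had 329 CPM (272 to 394) against 245 in WT, 1222 against 1163 in KO, and 249 (108 to 491) against 662 in KO_PBS, where it rests on 8 UMIs. Timp1, an inhibitor of matrix proteases, went the opposite way between the 2 knockout libraries: 93.4 CPM (19.3 to 273) against 17.6 in KO_PBS, from 3 UMIs, and 29.2 (10.7 to 63.6) against 66.1 in KO, from 6 UMIs. Neither difference between libraries was tested.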

How the results depend on the processing

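Member numbers depended on the rule. With 3 of 12 genes required, 313 (WT), 168 (KO) and 19 (KO_PBS) barcodes qualified; with 5 of 12, 33, 14 and 9. At 4 times the library share there were 123, 147 and 342 (KO_PBS), and at 16 times 37, 11 and 0. Without Acta2 and Tagln there were 17, 21 and 45, and with the WT threshold, added after seeing the data, 1189 in KO_PBS. Genes higher in members numbered 102 against depth-matched barcodes, 65 at 16 times (WT and KO alone, as KO_PBS had no member), 2 without the library block, 79 without endothelium-rich members, and 15 to 151 with a library left out. Genes lower in members numbered 3 with no filter, 0 without the block, 0 to 40 with a library left out, 15 at 16 times, 1 without endothelium-rich members, 10 by TMM, 2 by library totals and 0 by DESeq2. Of the 165 higher genes, 156 kept their sign in every setting run. The 75 named genes of that test gave 956 values under the alternatives: 613 kept direction and call, 341 kept direction alone, and 2 turned. With a library left out Hbb-bs ran from -0.29 (without KO) to 1.89, and Colec11, whose member UMIs were all in WT, from a fitted -8.26 (without WT) to 5.83. DESeq2 called 122 higher, 102 of them shared. The median of all genes moved from -0.21 to -0.34 by TMM and -0.03 by library totals. The endothelium, Notch3 and library-total settings were also added after seeing the data. TMM had been planned for the main test and became an alternative only then.

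For KO against WT, 361 genes were higher with 20 UMIs required, 22 at 16 times and 5 relative to the other barcodes; 33 were lower at 16 times and 13 relative to the others, counting here and below every tested gene whose ratio kept its sign after the subtraction, whether or not it was 2-fold before. For KO_PBS against KO, 115 were higher with 20 UMIs, 11 after thinning and 10 relative to the others; 81 were lower when centred, 51 after thinning and 30 relative to the others, and 16 times gave no value, as KO_PBS had no member. No paired analysis was possible because each group is 1 library. Depth limits most statements: KO_PBS members hold 32293 UMIs in all, and the 95% Poisson interval of 0 UMIs there reaches 114 CPM.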
